A study of Mus musculus with 15 samples.

Results

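The mRNA decay regulators described here are 7 genes that were looked up by symbol in all 15 count tables, and they are 7 of 17493 genes listed. They form 3 families. Zfp36, Zfp36l1 and Zfp36l2 encode CCCH zinc finger proteins, Zc3h12a and Zc3h12d encode the ribonucleases Regnase-1 and Regnase-4, and Rc3h1 and Rc3h2 encode Roquin-1 and Roquin-2. All 7 passed the filter on low counts, so none was left out of the tests.

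Proteins of the ZFP36 family bind AU-rich elements in the 3′ untranslated region (UTR) of an mRNA and bring the CCR4-NOT deadenylase to it, which shortens the poly(A) tail and starts decay. Regnase-1 cuts stem-loops in the 3′ UTRs of mRNAs, and Roquin proteins bind stem-loops and also recruit the deadenylase. In T cells these proteins are known as brakes on cytokine and costimulator mRNAs. T cell receptor signalling is known to act on the proteins themselves, since the MALT1 protease cleaves Regnase-1 and Roquin and the kinase MK2 phosphorylates ZFP36, and such changes are not visible in mRNA counts.

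The libraries hold bulk RNA of CD8+ OT-I T cells from female mice of the strain C57BL/6-Tg(TcraTcrb)1100Mjb, taken from spleen and lymph nodes, and every group carries this transgenic T cell receptor for an ovalbumin peptide. Ages were not given in the sources used here. There are 5 groups of 3 libraries. Unstimulated cells were taken at 0 h without treatment. Immunofilament (IF) groups received synthetic filaments carrying SIITFEKL-loaded major histocompatibility complex and interleukin-2, at 5 ng/ml, for 8 h or 22 h. Dendritic cell (DC) groups received 20000 Flt-3Ligand dendritic cells per well, pulsed with the SIITFEKL peptide, for the same times. Stimulated wells held 50000 T cells. Viable cells that were CD8+ and CD103- were sorted before lysis. The design asks how far the response to filaments resembles the response to dendritic cells, each read against the unstimulated cells. Unstimulated cells at 0 h are the only control, so stimulation cannot be told apart from time in culture.

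Total counts per library ran from 2892874 to 19806730. The CD8 T cell markers were present in every library (11 of 12 listed genes are in the tables, Trac is not), with a summed level of 11090 to 12010 counts per 1000000 counts of the library (CPM) in unstimulated cells and 5106 to 7874 CPM in stimulated ones. The 20 dendritic cell markers summed to 707.5 to 1616 CPM in unstimulated cells, 410.5 to 555.7 CPM at IF 8 h, 1172 to 1363 CPM at DC 8 h, 447.6 to 748.2 CPM at IF 22 h and 692.5 to 1037 CPM at DC 22 h. Zbtb46, which marks conventional dendritic cells, had 0 counts in all unstimulated and IF 8 h libraries, 8 to 23 counts at DC 8 h, 1 to 8 at IF 22 h and 4 to 8 at DC 22 h. Xcr1, another of the 20, went the other way, with 65 to 196 counts in unstimulated cells and 16 to 29 at DC 8 h. Its counts were 0 to 35 at IF 8 h, 1 to 58 at IF 22 h and 1 to 3 at DC 22 h. The 0 counts of Zbtb46 thus do not show that unstimulated libraries lacked dendritic cell transcripts. The 8 B cell markers, of which 5 are in the tables, summed to 3.6 to 38.1 CPM. Replicates 2 and 3 of IF 22 h stood apart from the other libraries: mitochondrial ribosomal RNA took 0.179% and 0.146% of their counts, against 1.82% to 4.49% in the other 13. Calls of members that rest on IF 22 h are therefore also given without both. That fit leaves 1 IF 22 h library, which is assumed to vary like the other groups.

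The AU-rich element itself occurs in the mRNAs of most of these regulators. In the GENCODE vM21 annotation of GRCm38 (mm10), the longest annotated 3′ UTR of Zfp36, Zfp36l1, Zfp36l2 and Rc3h2 held 3 copies each of UAUUUAU, the core to which ZFP36 proteins bind, and that of Rc3h1 held 2. Zc3h12a and Zc3h12d held 0 copies, in 3′ UTRs of 856 and 2327 bases. Of 14955 genes with an annotated 3′ UTR, 29.2% held at least 1 copy and 9.86% at least 2. In each of the 5 members with copies, exactly 1 lies between further U bases on both sides, and that copy is printed here in DNA letters with the core in capitals, beside a copy of the same kind from Tnf, a textbook ZFP36 target with 6 copies.
Zfp36, chr7:28376950-28376979, minus strand: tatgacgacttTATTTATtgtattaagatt
Zfp36l1, chr12:80108166-80108195, minus strand: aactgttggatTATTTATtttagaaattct
Zfp36l2, chr17:84184913-84184942, minus strand: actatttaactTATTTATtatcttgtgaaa
Rc3h1, chr1:160970043-160970072, plus strand: actttactcatTATTTATtgagatgaggag
Rc3h2, chr2:37373286-37373315, minus strand: caaagacatttTATTTATtttactctgtaa
Tnf, chr17:35199688-35199717, minus strand: tttgcacttatTATTTATtatttatttatt
The shared core and the differing flanks are what these lines show. The element is a match of letters and was not measured as a binding site here, and the members that hold it did not move as a group, as the values that follow show.

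Zfp36 fell and Zc3h12d rose after both stimuli at both times, and these were the only members past the threshold in all 4 comparisons with unstimulated cells. Zfp36l2 fell in 3 of the 4, and Zfp36l1 rose in 1. Zc3h12a, Rc3h1 and Rc3h2 did not pass the test against unstimulated cells. At an adjusted p under 0.05 (edgeR quasi-likelihood test, Benjamini-Hochberg over 10831 genes), 3 of 7 members passed at IF 8 h, 1 higher and 2 lower, beside 7.76% of all genes tested (3.04% higher, 4.72% lower). At DC 8 h 3 of 7 passed, 1 higher and 2 lower, beside 6.82% (2.75% higher, 4.07% lower). At IF 22 h 3 of 7 passed, 2 higher and 1 lower, beside 6.08% (2.63% higher, 3.44% lower), and at DC 22 h 3 of 7, 1 higher and 2 lower, beside 7.76% (3.41% higher, 4.35% lower). In all 4 comparisons at once, 1.08% of genes were called lower, as Zfp36 was, and 0.637% higher, as Zc3h12d was. The 4 comparisons share the same 3 unstimulated libraries, so a deviation of those libraries would enter all of them.

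**Figure D1:**
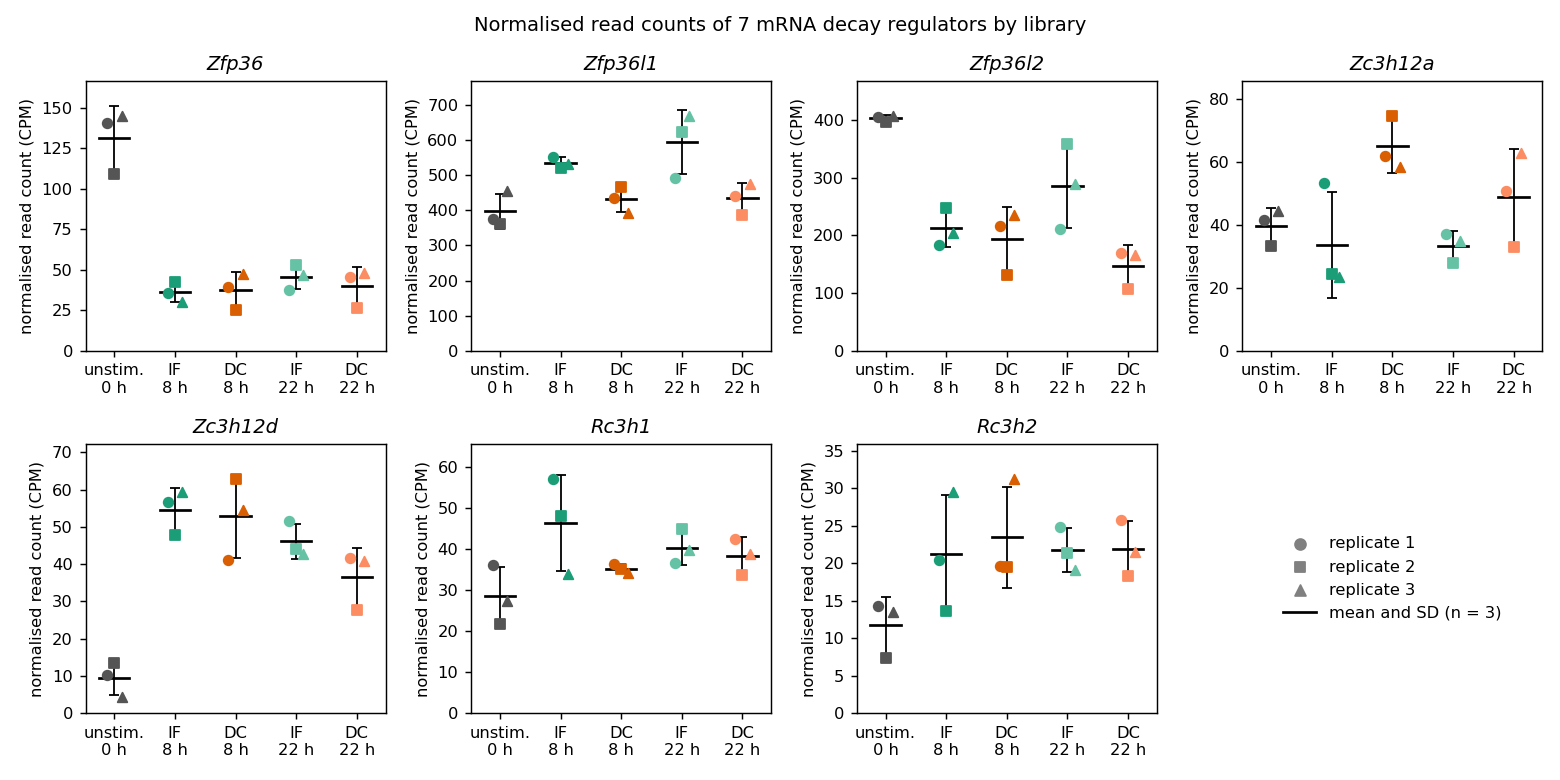
Normalised read counts (CPM, linear axes from 0) of the 7 genes in each of the 15 libraries, by group, with symbols for replicates 1 to 3 and bars for mean and SD. Zfp36 lies at 109 to 145 CPM in unstimulated cells and at 25.3 to 52.8 CPM in all stimulated libraries, while Zc3h12d lies at 4.42 to 13.6 CPM and at 27.7 to 62.8 CPM.

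Zfp36 encodes tristetraprolin, the founding member of the ZFP36 family and itself an immediate early gene in many cells (chr7:28376784-28380253, minus strand). Its normalised read count was 140, 109 and 145 CPM in the 3 unstimulated libraries. At 8 h it was 35.9, 42.4 and 30.0 CPM with IF and 39.6, 25.3 and 47.6 CPM with DC. At 22 h it was 37.4, 52.8 and 46.6 CPM with IF and 45.6, 26.5 and 48.0 CPM with DC. Every stimulated library lay below every unstimulated one, as for 5.35% of genes, and the 4 stimulated groups overlapped one another. The log2 fold change was -1.87 ± 0.27 (SE) at IF 8 h (adjusted p = 0.000394, edgeR), which is 3.64-fold lower. It was -1.81 ± 0.26 at DC 8 h (edgeR adjusted p = 0.000473) and -1.71 ± 0.26 at DC 22 h (edgeR adjusted p = 0.000775). At IF 22 h it was -1.53 ± 0.26 (edgeR adjusted p = 0.00185), and without replicates 2 and 3 of that group, which leaves 1 library, it was -1.81 ± 0.41 (edgeR adjusted p = 0.0523). In bulk RNA, fewer cells that express a gene and less RNA per cell cannot be told apart.

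Between the stimuli Zfp36 did not pass the test at 8 h or 22 h. The IF minus DC difference had a 95% interval from -0.61 to 0.50 on the log2 scale at 8 h and from -0.35 to 0.72 at 22 h. From 8 h to 22 h the interval was -0.21 to 0.89 with IF and -0.44 to 0.64 with DC. After the step down from unstimulated cells, the order of the 4 stimulated group means was IF 22 h (45.6 ± 7.8 CPM, SD, n = 3), DC 22 h (40.1 ± 11.8 CPM), DC 8 h (37.5 ± 11.3 CPM) and IF 8 h (36.1 ± 6.2 CPM), with no neighbours that differed beyond their spread.

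Zfp36 was lower in libraries in which many immediate early genes and many CD8 T cell markers were lower as well. Of 23 tested immediate early genes, 12 were lower with IF and 10 with DC at 8 h, and 13 with IF and 17 with DC at 22 h. The median log2 fold changes of the list were -0.97, -0.97, -1.30 and -1.93, beside 0.02, 0.04, 0.01 and 0.04 over all genes tested. Of 11 tested CD8 T cell markers, 7 were lower with IF and 9 with DC at 8 h, and 6 with IF and 7 with DC at 22 h, with medians of -0.80, -0.89, -0.57 and -0.96. Fos, a subunit of the AP-1 transcription factor, fell from 292 ± 95.4 CPM to 1.29 ± 0.74 CPM at DC 22 h (SD, n = 3), a log2 fold change of -7.78 (edgeR adjusted p = 3.23e-07). Junb fell from 719 ± 81.5 CPM to 86.8 ± 15.9 CPM at IF 8 h, a log2 fold change of -3.05 (edgeR adjusted p = 6.14e-08). Egr2, a zinc finger factor induced by receptor signalling, was the 1 listed gene called higher, at IF 8 h and IF 22 h. The summed level of the 24 genes was 5681 to 7469 CPM in unstimulated cells and 1939 to 3405 CPM in stimulated ones, and the part of either list in the change of Zfp36 was not tested.

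The promoter of Zfp36 is shown because immediate early genes are known to be driven by EGR and serum response factors. It is taken from RefSeq (GRCm38.p6, chr7:28379179-28379478, minus strand), from 250 bases before the start to 50 after, with an EGR site and a CArG box in capitals. The start is that of RefSeq, and the window lies within the GENCODE span of the gene given above (chr7:28376784-28380253).
Zfp36 promoter: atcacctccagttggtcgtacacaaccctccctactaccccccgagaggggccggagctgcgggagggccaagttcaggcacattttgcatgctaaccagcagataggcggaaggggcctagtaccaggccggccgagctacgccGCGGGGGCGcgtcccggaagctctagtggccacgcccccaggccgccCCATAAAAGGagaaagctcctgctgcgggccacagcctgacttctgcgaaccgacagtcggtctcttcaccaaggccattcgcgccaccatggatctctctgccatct
The EGR match (GCGNGGGCG, both strands searched) starts 105 bases before the start and the CArG box, the binding motif of serum response factor, starts 58 bases before it. Of 32851 mouse promoters of this length, 5.55% held the EGR motif and 1.63% a CArG box. Promoters were found for 6 of the 7 members, and Zfp36 was the only one of these 6 with either motif. The member without a promoter was Zfp36l2, which also fell and was not searched. The matches are letters in a window and no binding was measured.

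Zfp36l2, a paralogue that with Zfp36l1 keeps developing and resting lymphocytes quiescent, fell in 3 groups (chr17:84183931-84187947, minus strand). Its level was 406, 396 and 407 CPM in unstimulated libraries. At 8 h it was 184, 248 and 205 CPM with IF and 216, 131 and 236 CPM with DC. By 22 h it was 211, 359 and 289 CPM with IF and 170, 107 and 167 CPM with DC. All 12 stimulated libraries lay below all unstimulated ones, as for 5.35% of genes. The range of IF 22 h lay above that of DC 22 h, as for 10.7% of genes. The log2 fold change against unstimulated cells was -1.05 ± 0.24 at DC 8 h (edgeR adjusted p = 0.0129) and -1.45 ± 0.24 at DC 22 h (edgeR adjusted p = 0.00144). It was -0.93 ± 0.24 at IF 8 h (edgeR adjusted p = 0.0266), and this call was lost without any 1 of the unstimulated libraries, without IF 8 h replicate 1 or 3, and with scaling by library size alone (highest adjusted p 0.0986). The DC 8 h call was lost without DC 8 h replicate 2 (adjusted p = 0.0615), while the DC 22 h call held under all 14 alternatives. At IF 22 h the change was -0.49 ± 0.24 (edgeR adjusted p = 0.252). It was -0.93 ± 0.33 without replicates 2 and 3 of that group and -0.31 ± 0.24 without replicate 1 (edgeR adjusted p = 0.267 and 0.511).

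At 22 h Zfp36l2 was the only member to pass the direct test between the stimuli, and 2.43% of all genes did so, 1.23% higher with IF. It was 1.94-fold higher with IF than with DC, at 286 ± 74.1 against 148 ± 35.6 CPM (SD, n = 3), a log2 difference of 0.96 ± 0.24 (edgeR adjusted p = 0.0427). The call held in 6 of 15 alternatives, and the adjusted p ran from 0.000296 to 0.954 over the 15. It was lost without IF 22 h replicate 2 or 3 and without any 1 of the DC 22 h libraries. It was also lost with the replicate number as a block (edgeR adjusted p = 0.0582), in a fit of the 2 groups alone (0.202) and with scaling by library size (0.0719). With IF 22 h replicates 2 and 3 both left out, the remaining library at 211 CPM still lay above the 3 DC libraries, with a log2 difference of 0.52 ± 0.31 (edgeR adjusted p = 0.954). The sign was positive in all 15, with log2 differences from 0.52 to 1.13. At 8 h the interval of the same difference was -0.38 to 0.63, and the test of whether the difference changed from 8 h to 22 h gave 0.83 ± 0.34 (edgeR adjusted p = 0.553), with 0 of 10831 genes past the threshold. At 22 h the summed CD8 T cell markers were 6787 to 7874 CPM with IF and 5396 to 6738 CPM with DC, and 4 of 11 tested markers were called higher with IF. The 5 B cell markers summed to 18.8 to 38.1 CPM with IF and 5.2 to 13.9 CPM with DC at 22 h. The part of either list in the Zfp36l2 difference was not tested.

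Zfp36l1, the third paralogue (chr12:80107754-80113013, minus strand), did not fall in any group. Its level was 375, 362 and 454 CPM in unstimulated cells. At 8 h it was 553, 522 and 533 CPM with IF and 435, 467 and 394 CPM with DC. At 22 h it was 492, 623 and 669 CPM with IF and 441, 387 and 476 CPM with DC. Both IF groups lay wholly above the unstimulated range, whereas both DC groups overlapped it. Of all genes 14.2% lay wholly above it at IF 8 h and 15.7% at IF 22 h. The change passed the threshold at IF 22 h, with a log2 fold change of 0.58 ± 0.15 (edgeR adjusted p = 0.0295). That call was lost in counts thinned to the smallest library, without unstimulated replicate 1 or 2, without IF 22 h replicate 2 or 3, and without the latter pair (log2 0.31 ± 0.20, edgeR adjusted p = 0.634). At IF 8 h the log2 fold change was 0.43 ± 0.15 (edgeR adjusted p = 0.0916), and the 95% intervals with DC were -0.20 to 0.44 at 8 h and -0.19 to 0.45 at 22 h. Between the stimuli the IF range lay above the DC range at both times, as for 5.8% and 10.7% of all genes, with adjusted p = 0.623 at 8 h and 0.135 at 22 h (edgeR).

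Ratios of counts within a library compare the 3 paralogues directly, and no test was run on them. The ratio of Zfp36l1 to Zfp36l2 counts was 0.923, 0.914 and 1.12 in unstimulated libraries and lay between 1.67 and 3.63 after stimulation. Its group means ± SD were 2.57 ± 0.45 with IF and 2.41 ± 1.01 with DC at 8 h, and 2.13 ± 0.34 with IF and 3.03 ± 0.54 with DC at 22 h. No stimulated library reached the unstimulated range, and the stimulated groups overlapped each other except for IF 22 h and DC 22 h. The ratio of Zfp36l2 to Zfp36 counts was 2.81 to 3.63 in unstimulated libraries, 4.96 to 6.82 at IF 8 h, DC 8 h and IF 22 h, and 3.47 to 4.01 at DC 22 h. Here DC 22 h overlapped the unstimulated range and the other 3 groups lay above it. These ratios do not depend on the scaling between libraries and compare libraries, not the abundance of the genes, since counts were not set per length. Each of the 3 genes overlaps an antisense or long noncoding gene on the opposite strand (Zfp36 with Gm44710 over 125 exonic bases, Zfp36l1 with Gm26669 over 1672, Zfp36l2 with AC132455.1 over 105), and reads of both cannot be told apart where counting ignores strand.

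**Figure D2:**
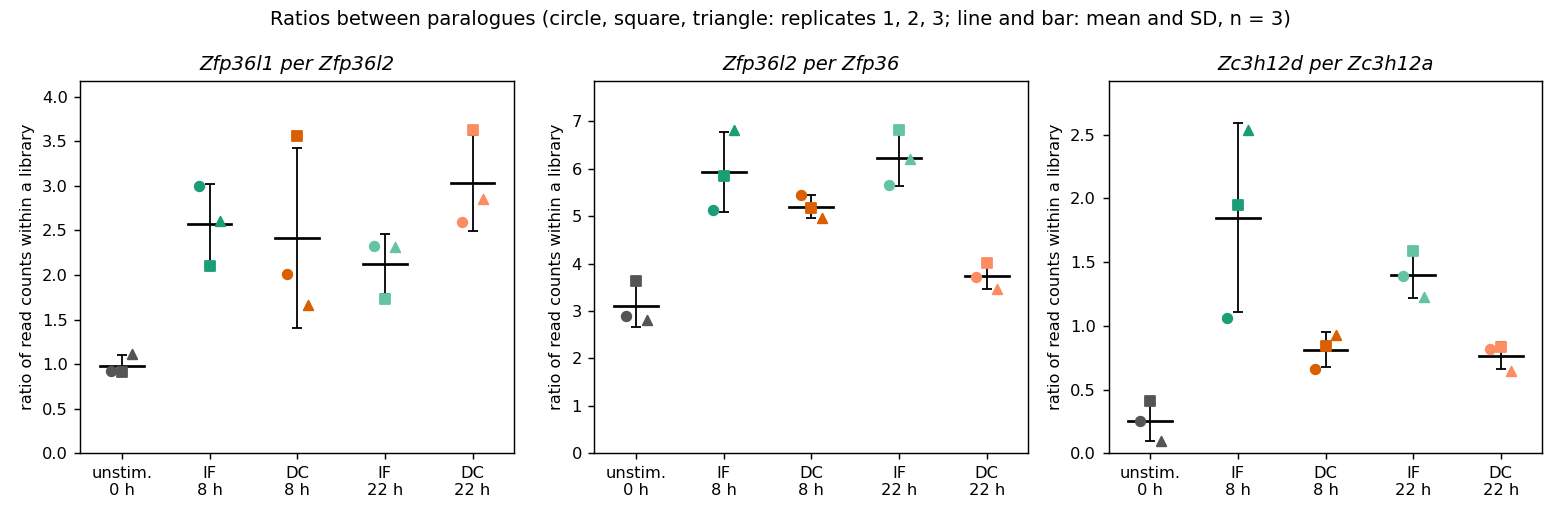
Ratios of read counts between related genes within each library (linear axes from 0), with points for replicates and bars for mean and SD. Zfp36l1 per Zfp36l2 is at most 1.12 in unstimulated libraries and at least 1.67 after stimulation, and Zc3h12d per Zc3h12a is at most 0.408 and at least 0.648.

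Zc3h12d, which encodes the ribonuclease Regnase-4, showed the largest rise of the 7 genes (chr10:7832470-7870396, plus strand). Its level was 10.4, 13.6 and 4.42 CPM in unstimulated libraries, from 71, 75 and 19 counts. At 8 h it was 56.6, 47.7 and 59.2 CPM with IF and 41.0, 62.8 and 54.5 CPM with DC. At 22 h it was 51.5, 44.1 and 42.6 CPM with IF and 41.5, 27.7 and 40.8 CPM with DC. The lowest stimulated library, DC 22 h replicate 2, lay above the highest unstimulated one, and 2.82% of genes were likewise higher in all stimulated libraries. The log2 fold change was 2.50 ± 0.31 at IF 8 h, or 5.68-fold (edgeR adjusted p = 9.35e-05), and 2.46 ± 0.30 at DC 8 h (edgeR adjusted p = 0.00013). At 22 h it was 2.26 ± 0.30 with IF (edgeR adjusted p = 0.00027) and 1.93 ± 0.30 with DC (edgeR adjusted p = 0.000959). These 4 calls held under all alternatives. At IF 22 h the fit with the lone replicate 1 gave an edgeR adjusted p of 0.00847.

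The order of the Zc3h12d group means was IF 8 h (54.5 ± 6.0 CPM), DC 8 h (52.8 ± 11 CPM), IF 22 h (46.1 ± 4.8 CPM), DC 22 h (36.7 ± 7.8 CPM) and unstimulated (9.47 ± 4.64 CPM; SD, n = 3). The last step was larger than the spread of its neighbours. The IF 22 h range lay just above the DC 22 h range, as for 10.7% of genes (adjusted p = 0.64, edgeR), and the other neighbours overlapped. From 8 h to 22 h with DC the log2 difference was -0.52 ± 0.28 (edgeR adjusted p = 0.624), with an interval from -1.11 to 0.06. Between IF and DC the interval was -0.54 to 0.64 at 8 h and -0.25 to 0.91 at 22 h.

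The promoter of Zc3h12d is shown beside that of Zfp36 because the genes moved in opposite directions in the same libraries. It is from RefSeq as above (GRCm38.p6, chr10:7832220-7832519, plus strand).
Zc3h12d promoter: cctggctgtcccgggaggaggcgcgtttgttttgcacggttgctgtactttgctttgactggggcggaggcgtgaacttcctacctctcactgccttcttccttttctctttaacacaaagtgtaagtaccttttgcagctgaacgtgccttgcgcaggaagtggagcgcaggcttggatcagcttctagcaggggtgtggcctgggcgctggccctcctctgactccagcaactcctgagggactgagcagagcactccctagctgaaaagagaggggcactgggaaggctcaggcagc
Of the 7 motifs searched on both strands, it held only a GC box (GGGCGG), 189 bases before the start, as did 35.7% of all promoters. The other 6 were the EGR site, the CArG box, the AP-1 site TGANTCA (7.81% of promoters), the cAMP response element (1.79%), the NF-κB site by name (4.51%) and the TATA box TATAAA (13.6%). Among the 6 members with a promoter, Rc3h1 and Zfp36l1 held an AP-1 match and Zfp36l1 also a TATA box 29 bases before its start. The GC box of Zfp36, on the opposite strand, overlaps the first base of its CArG box and is not capitalised above.

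Zc3h12a, which encodes Regnase-1 (chr4:125118423-125127840, minus strand), did not follow its relative. Its level was 41.4, 33.3 and 44.5 CPM in unstimulated libraries. At 8 h it was 53.2, 24.5 and 23.3 CPM with IF and 61.8, 74.5 and 58.4 CPM with DC. By 22 h it was 37.1, 27.7 and 34.7 CPM with IF and 50.9, 33.1 and 62.9 CPM with DC. Only DC 8 h lay wholly above the unstimulated range, as for 13% of genes, and the IF 8 h libraries lay on both sides of it. The log2 fold change was 0.71 ± 0.29 at DC 8 h (edgeR adjusted p = 0.167). Its 95% interval was -0.85 to 0.41 at IF 8 h, -0.87 to 0.36 at IF 22 h and -0.31 to 0.92 at DC 22 h, and the estimate at IF 8 h changed sign with scaling by library size alone.

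Between the stimuli at 8 h, Zc3h12a had the lowest p of the members. The level was 33.7 ± 16.9 CPM with IF against 64.9 ± 8.5 CPM with DC (SD, n = 3), a log2 difference of -0.93 ± 0.29 (edgeR adjusted p = 0.238). The ranges did not overlap, as for 7.7% of all genes with IF lower. The threshold was passed without the filter on low counts and without IF 8 h replicate 1, the library at 53.2 CPM (lowest adjusted p 0.025). At 22 h the difference was -0.56 ± 0.29 (edgeR adjusted p = 0.374) and the ranges overlapped. In the same libraries the 20 dendritic cell markers summed to 1172 to 1363 CPM at DC 8 h and 410.5 to 555.7 CPM at IF 8 h, and 6 of 16 tested markers were called lower with IF, beside 0.434% of all genes. Fscn1, an actin bundler of mature dendritic cells, had 856 to 1699 counts at DC 8 h and 1 to 3 at IF 8 h. The part of such cells in the Zc3h12a values was not tested.

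The ratio of Zc3h12d to Zc3h12a counts was 0.252, 0.408 and 0.0995 in unstimulated libraries. It was 1.06, 1.95 and 2.54 at IF 8 h, 0.664, 0.843 and 0.932 at DC 8 h, 1.39, 1.59 and 1.23 at IF 22 h, and 0.817, 0.836 and 0.648 at DC 22 h. Every stimulated library exceeded every unstimulated one, and both IF groups lay above both DC groups. The ratio was not tested, and neither gene passed the test between IF and DC at 8 h or 22 h.

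Rc3h1 and Rc3h2, the Roquin genes, had higher means in all 4 stimulated groups but did not pass the test in any. Rc3h1 (chr1:160906418-160974978, plus strand) was at 36.1, 21.9 and 27.5 CPM in unstimulated libraries and ran from 33.7 to 57.1 CPM over the 12 stimulated ones. Its highest library was IF 8 h replicate 1, and unstimulated replicate 1 lay within the stimulated range. The log2 fold changes were 0.70 ± 0.22 with IF and 0.31 ± 0.22 with DC at 8 h (edgeR adjusted p = 0.0638 and 0.466), and 0.50 ± 0.22 with IF and 0.43 ± 0.22 with DC at 22 h (edgeR adjusted p = 0.205 and 0.264). The IF 8 h change was called in 5 of 14 alternatives.

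Rc3h2 (chr2:37370069-37422903, minus strand) was at 14.4, 7.41 and 13.5 CPM in unstimulated libraries, from 41 to 98 counts. It was at 20.5, 13.6 and 29.5 CPM at IF 8 h and at 19.6, 19.5 and 31.3 CPM at DC 8 h. At 22 h it was at 24.9, 21.4 and 19.1 CPM with IF and 25.8, 18.4 and 21.5 CPM with DC. Except for IF 8 h replicate 2, each stimulated library lay above the unstimulated range. The log2 fold changes were 0.85 ± 0.32, 0.99 ± 0.31, 0.89 ± 0.31 and 0.90 ± 0.31 at IF 8 h, DC 8 h, IF 22 h and DC 22 h (edgeR adjusted p = 0.114, 0.0653, 0.107 and 0.0913), and 1 of 14, 4 of 14, 1 of 15 and 2 of 14 alternatives gave a call. Between IF and DC the intervals were -0.78 to 0.51 at 8 h and -0.64 to 0.62 at 22 h.

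**Figure D3:**
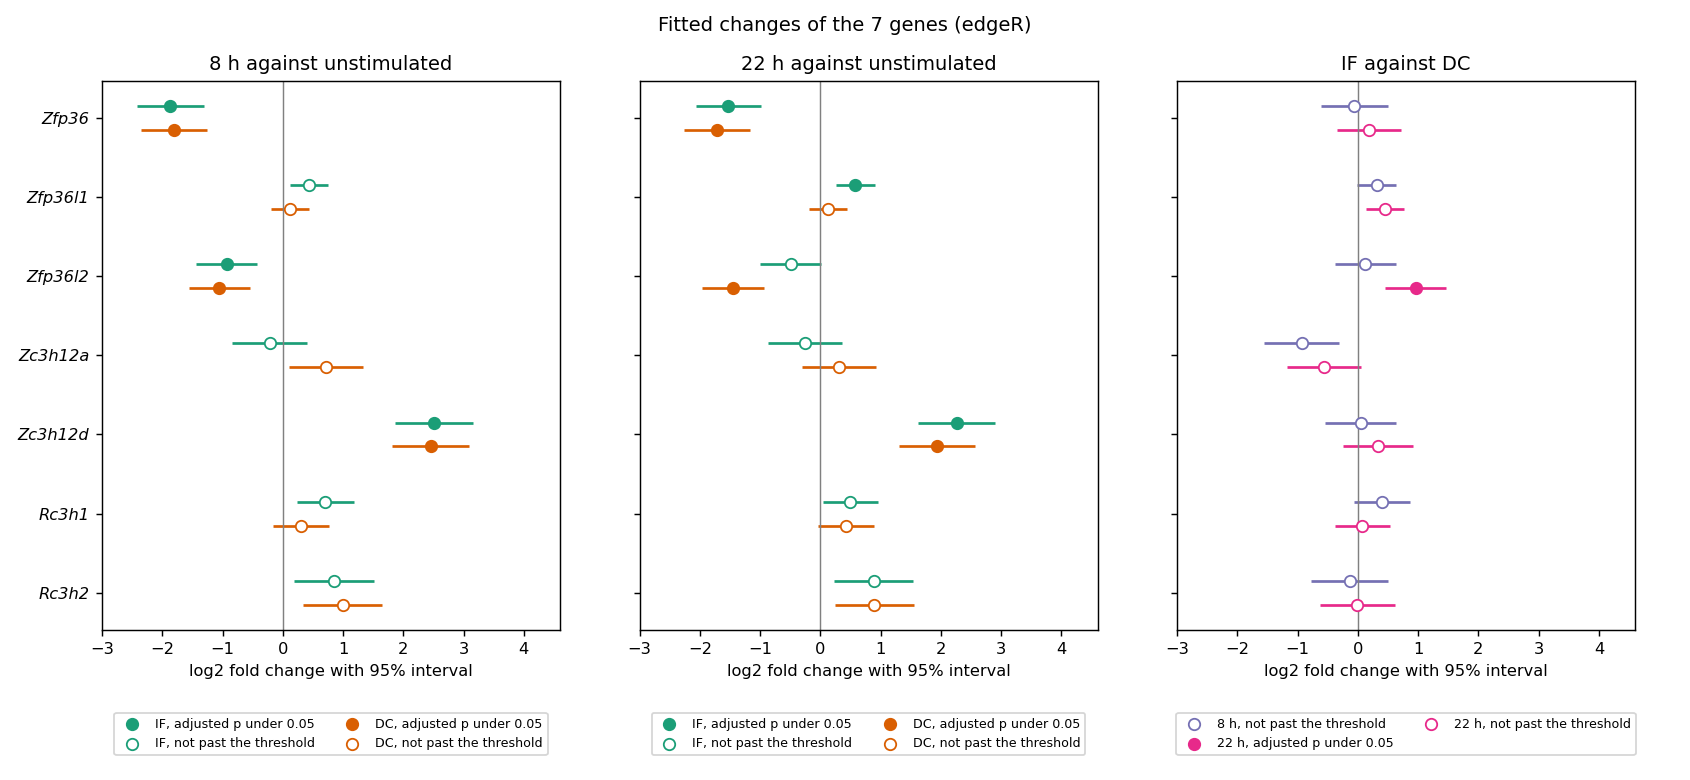
Fitted log2 fold changes of the 7 genes with 95% intervals, for each stimulus against unstimulated cells at 8 h and 22 h and for IF against DC (positive is higher with IF), with filled points for adjusted p under 0.05. Zfp36 and Zc3h12d are filled in all 4 comparisons with unstimulated cells, and Zfp36l2 at 22 h is the only filled point between the stimuli.

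Across the remaining comparisons the members gave few calls. At 8 h 0 of 7 differed between IF and DC, beside 0.665% of all genes. There, 1 member had an unadjusted p under 0.05 by edgeR, beside 896 of all 10831 genes. Between 8 h and 22 h 0 of 7 differed with IF, beside 1.12% of genes, and 0 of 7 with DC, beside 0.48%. By edgeR 0 members had an unadjusted p under 0.05 in either, beside 1622 genes with IF and 978 with DC. DESeq2 also called 0 members in these 3 comparisons, beside 195, 366 and 210 of 10831 genes. Ranges of the groups did not overlap for 4 of 7 members at IF 8 h (30.6% of all genes), 5 of 7 at DC 8 h (28.2%), 6 of 7 at IF 22 h (30.4%) and 4 of 7 at DC 22 h (27.1%). In the test over all 5 groups 4 members passed, beside 11.8% of genes. They were Zfp36 (adjusted p = 0.00018), Zc3h12d (0.000367), Zfp36l2 (0.00396) and Zfp36l1 (0.0494) by edgeR. The Zfp36l1 result was kept in 7 of 23 alternatives and the other 3 in all 23.

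Over the 15 libraries the members' log2 CPM values are compared here as a description, with no test. Pearson's r was 0.85 between Zfp36 and Zfp36l2, -0.88 between Zfp36 and Zc3h12d, and 0.04 between Zfp36l1 and Zfp36l2. The 15 points share the 5 groups, so r includes the step from unstimulated to stimulated cells. Among 6953 genes with a mean of at least 10 CPM, the genes most like Zfp36 were Rasgrp2 (r = 0.965), Aes (0.964) and Gsn (0.962). Those most like Zfp36l2 were Crip1 (0.975), Rps21 (0.975) and Rpl32 (0.972), of which the latter pair encode ribosomal proteins. Zc3h12d was followed by Utf1 (0.941), Bcl2l11 (0.928), which encodes the death protein BIM, and Trmt5 (0.903). Zfp36l1 was followed by AI504432 (0.894), Myb (0.887) and Gpr171 (0.87). The nearest genes of the other 3 members had r from 0.801 to 0.831.

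The decay machinery that these regulators recruit gave few calls. Of 14 tested genes of the CCR4-NOT deadenylase and its BTG/TOB adaptors, 0 passed at IF 8 h and DC 22 h, 1 was lower at DC 8 h and 2 at IF 22 h, and none was higher in these 4 comparisons. Tob2, an antiproliferative adaptor of the deadenylase, fell from 62.0 ± 1.8 CPM to 33.4 ± 2.7 CPM at DC 8 h and 32.9 ± 5.7 CPM at IF 22 h (SD, n = 3; log2 -0.89 and -0.92, edgeR adjusted p = 0.0131 and 0.0128). Btg1, a related adaptor known for T cell quiescence, fell by 1.00 on the log2 scale at IF 22 h (edgeR adjusted p = 0.0403). The Tob2 call at DC 8 h was lost without DC 8 h replicate 1 and with library size alone, that at IF 22 h without unstimulated replicate 3 or IF 22 h replicate 3, and the Btg1 call without any 1 unstimulated library or IF 22 h replicate 2 or 3. Without IF 22 h replicates 2 and 3 together both calls at IF 22 h were lost. The medians of the list were -0.13, -0.34, -0.49 and -0.13 at IF 8 h, DC 8 h, IF 22 h and DC 22 h, below those of all genes (0.02, 0.04, 0.01 and 0.04), and the share called lower was 7.14% at DC 8 h and 14.3% at IF 22 h, beside 4.07% and 3.44%. Among 29 tested genes of the PAN deadenylase, poly(A) binding, decapping and exonucleases, Pabpc1 alone passed, lower at IF 8 h (log2 -0.45, edgeR adjusted p = 0.0316; lost without any 1 unstimulated library or IF 8 h replicate 2 or 3), with list medians of 0.205 to 0.267. Of 13 other AU-rich element binding proteins, 0 passed in the 4 comparisons, with medians from -0.01 to 0.19.

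Regulators of the members showed changes in single genes. Mapkapk2, the kinase MK2 that inactivates ZFP36 by phosphorylation, was higher in all 4 groups, from 24.2 ± 1.1 CPM in unstimulated cells to between 42.7 and 46.4 CPM in the group means, with log2 fold changes of 0.82 to 0.94 (edgeR adjusted p from 0.0149 to 0.0342). Its calls held in 9 of 14 alternatives at IF 8 h, 11 of 14 at DC 8 h, 7 of 15 at IF 22 h and 9 of 14 at DC 22 h. Each was lost without unstimulated replicate 2 or 3, and all but DC 8 h without unstimulated replicate 1. They were also lost without IF 8 h replicate 1 or 3, without replicate 2 of DC 8 h or of DC 22 h, and without any 1 of the IF 22 h libraries. Mapkapk3, a related kinase, was higher at DC 8 h (log2 1.32, edgeR adjusted p = 0.00141), under all 14 alternatives. Of the 17 tested genes 17.6%, 11.8%, 5.88% and 5.88% were called higher at IF 8 h, DC 8 h, IF 22 h and DC 22 h, beside 3.04%, 2.75%, 2.63% and 3.41% of all genes.

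Known target mRNAs of the regulators moved in both directions. Of 14 tested ZFP36 targets, 1 was higher and 4 were lower at IF 8 h, 1 and 1 at DC 8 h, 0 and 3 at IF 22 h, and 1 and 2 at DC 22 h, with medians of -0.56, 0.11, -0.58 and 0.40, beside 0.02, 0.04, 0.01 and 0.04 over all genes. Bcl2, a survival gene with 2 copies of UAUUUAU in its 3′ UTR, was lower in all 4, from 280 ± 39.7 CPM to 96.0 ± 11.8 CPM at IF 8 h (SD, n = 3), with log2 fold changes of -1.55, -1.58, -1.18 and -0.87 (highest edgeR adjusted p 0.0135). The last was lost without unstimulated replicate 1 and with library size alone, and the third without IF 22 h replicates 2 and 3 together. Cdkn1a, the cell cycle inhibitor p21, rose from 3.11 ± 2.31 CPM to 88.6 ± 69.4 CPM at DC 8 h (log2 4.91, edgeR adjusted p = 0.00013), and its 3 libraries there spanned 46.1 to 169 CPM. Cytokine targets gave no call: Tnf was at 7.07 to 13.6 CPM and Ifng at 8.72 to 28.5 CPM in the group means.

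Of 11 tested Regnase-1 and Roquin targets, 5 were higher and 1 lower at IF 8 h, 4 and 0 at DC 8 h, 2 and 1 at IF 22 h, and 2 and 0 at DC 22 h, with medians of 0.90, 0.94, 0.46 and 0.50, beside 0.02, 0.04, 0.01 and 0.04 over all genes. Of all genes 3.04%, 2.75%, 2.63% and 3.41% were higher and 4.72%, 4.07%, 3.44% and 4.35% lower in these comparisons. Ctla4, an inhibitory receptor, was higher in all 4 groups, from 3.39 ± 0.70 CPM to between 8.88 and 18.1 CPM in the group means, with log2 fold changes of 2.26, 2.19, 1.40 and 2.43 (highest edgeR adjusted p 0.00616), of which the third was lost without IF 22 h replicates 2 and 3 together. Il2ra, the alpha chain of the interleukin-2 receptor, was higher in all 4 as well (log2 3.73 to 4.70, highest edgeR adjusted p 0.0295), with 3.93 to 66 CPM over the DC 22 h libraries. Its calls at IF 8 h, IF 22 h and DC 22 h were lost without unstimulated replicate 2, those at 22 h also without unstimulated replicate 1, and that at IF 22 h also without unstimulated replicate 3, IF 22 h replicate 2 or 3 or that pair. Icos, a costimulator and classic Roquin target, was higher at IF 8 h, at 133 ± 5.8 against 62.0 ± 4.8 CPM (log2 1.10, edgeR adjusted p = 0.00341), under all 14 alternatives. Nfkbiz, which encodes a nuclear IκB protein, was lower at IF 22 h (log2 -1.32, edgeR adjusted p = 0.000986), except without replicates 2 and 3 of that group together. Many of these targets are also activation genes of T cells, and what decay contributed was not measured.

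A further list was drawn from sequence alone. Of 949 tested genes with at least 2 copies of UAUUUAU in the annotated 3′ UTR, 7.06%, 6.01%, 7.59% and 7.80% passed at IF 8 h, DC 8 h, IF 22 h and DC 22 h, beside 7.76%, 6.82%, 6.08% and 7.76% of all genes. The list's median log2 fold changes were 0.07, 0.09, 0.01 and 0.16, beside 0.02, 0.04, 0.01 and 0.04. Between IF and DC at 22 h the list's median was -0.13, beside -0.02, and 2.11% of it was called, beside 2.43%.

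**Figure D4:**
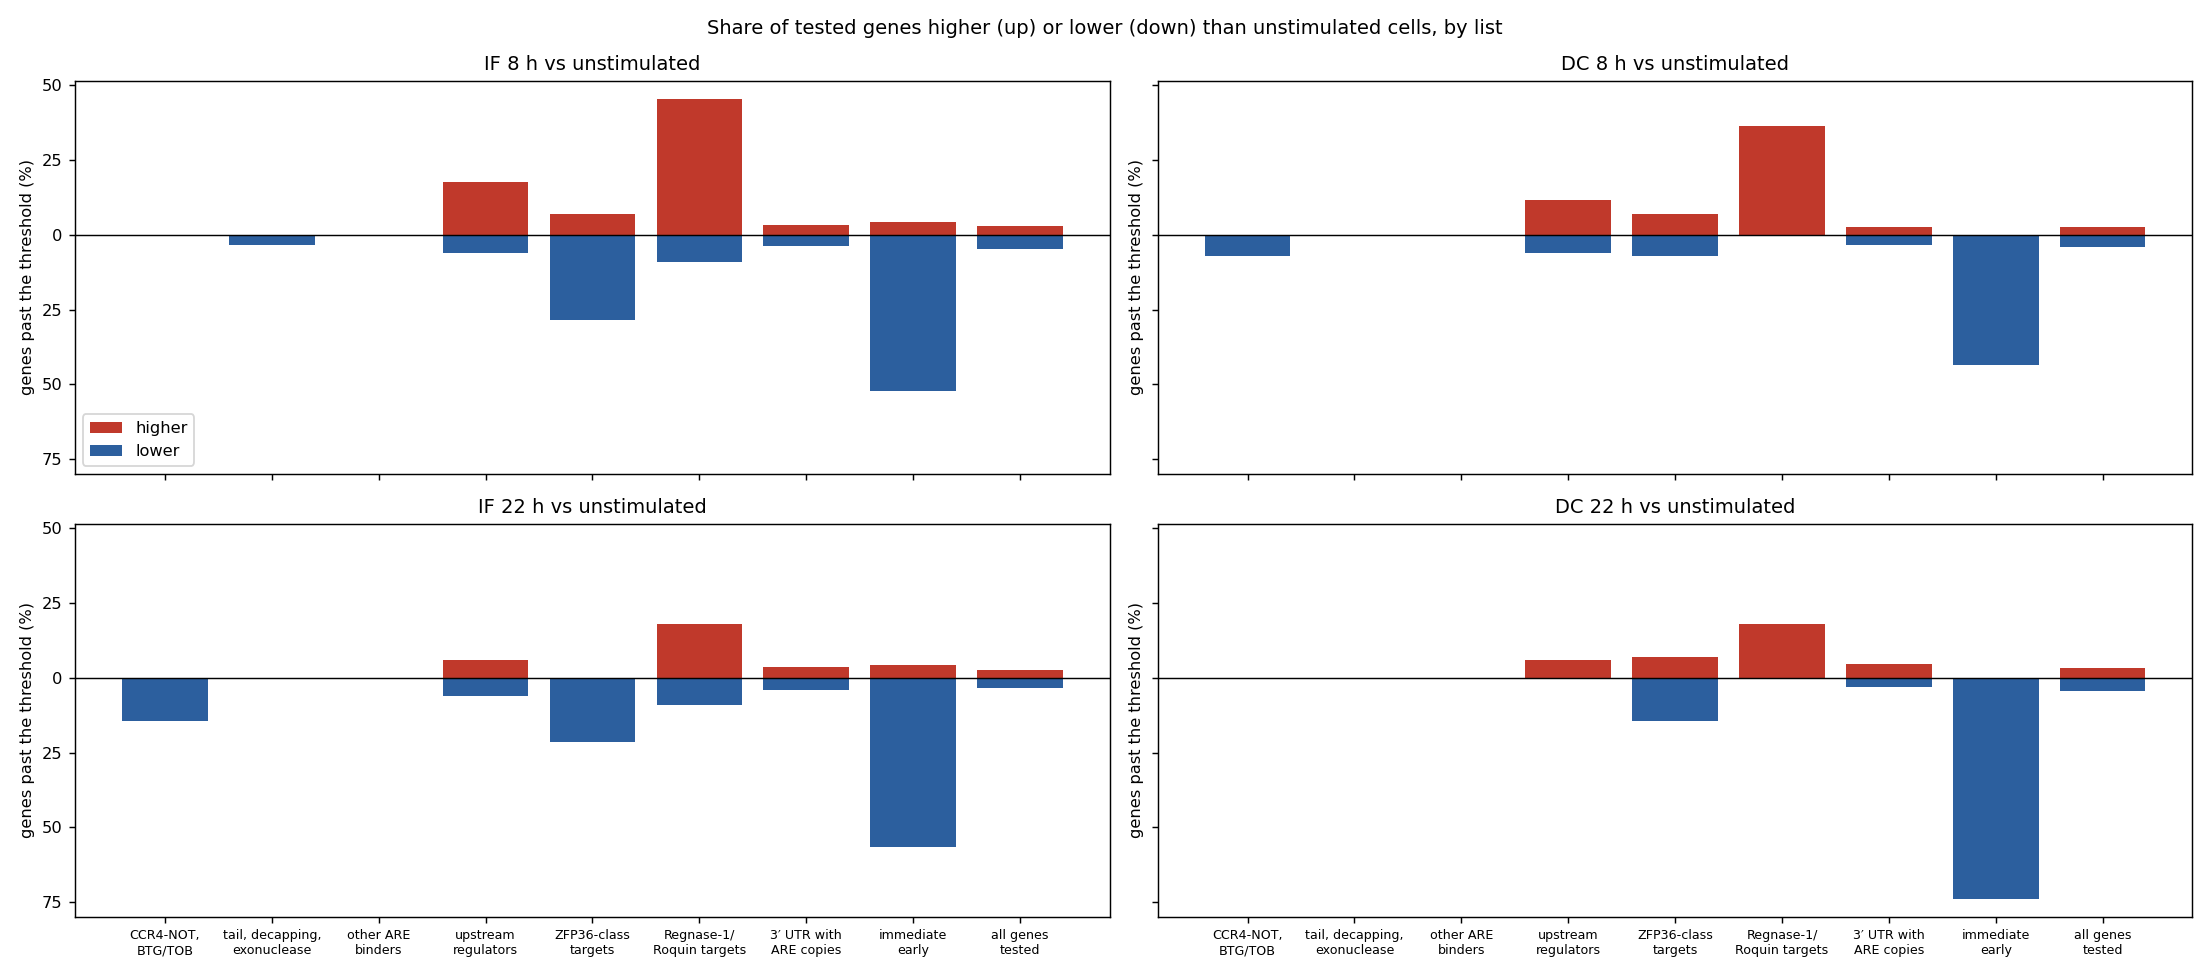
Share of tested genes (%) in 8 lists and over all genes that were higher (red, upward) or lower (blue, downward) than unstimulated cells at adjusted p under 0.05, in 4 panels by stimulus and time. Of immediate early genes 43.5% to 73.9% are lower, of Regnase-1 and Roquin targets 18.2% to 45.5% are higher, and of genes with AU-rich element copies 6.01% to 7.80% are called, beside 6.08% to 7.76% of all genes.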

How the data were processed

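RNA of 15 libraries of sorted CD8+ T cells was measured by an adapted CEL-seq protocol (poly(A)-primed, barcoded, amplified by in vitro transcription). The deposited tables hold whole-number counts per gene without normalization. The submitters' processing notes name BWA and mm10, and the counting program, strand and use of molecular identifiers are not given in the sources used here. The members and gene lists were chosen with earlier results of these data known.

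In R 4.3.3, edgeR 4.0.16 kept 10831 of 17493 genes by filterByExpr (minimum count 10, minimum total 15; at most 0.124% of a library's counts left out), scaled libraries by TMM and fitted 1 quasi-likelihood model with 5 group means. Tests were two-sided, adjusted by Benjamini-Hochberg over all genes tested, with a threshold of 0.05 and a prior count of 0.125. CPM are edgeR's, and fold changes are log2 ± SE with 95% intervals. The scripts were tested on simulated counts. DESeq2 1.42.0 was an alternative. Likeness used log2 CPM with a prior count of 2. Replicate numbers carry the tag Don in the titles, which the labels do not spell out, and nothing says whether libraries came from separate animals or cultures, so p-values measure the spread between these libraries, which may be technical. No replicate pair of a group agreed within sampling noise. Deviations of same-numbered libraries from their group means correlated above 0.1 in all 3 pairs only between DC 8 h and DC 22 h (0.116, 0.399 and 0.238). There, DC 8 h replicate 3 with DC 22 h replicate 1 gave 0.117, and DC 8 h replicate 1 with DC 22 h replicate 3 gave 0.107. Numbers 1 and 3 were thus not told apart, and pairing was not shown.

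Named genes are all 7 members, the 3 genes most like each member, and up to 4 genes with the smallest p past the threshold per list and comparison. Tnf, Ifng, Egr2, Zbtb46 and Fscn1 were named after their values were seen. A gene that the rule names is not reported here. UTRs and exon overlaps came from GENCODE vM21, the longest annotated 3′ UTR per gene, and promoters from RefSeq. Alternatives were DESeq2 size factors, library size alone, other filters, DESeq2, the replicate number as a block, the compared groups alone, thinning to the smallest library, and each library left out. The fit without IF 22 h replicates 2 and 3 was added after seeing the data.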

Additional observations from a re-analysis of the deposited data

Results flagged for a closer look

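Zfp36l2 differed between the stimuli at 22 h by a log2 difference of 0.956 (IF minus DC, edgeR adjusted p = 0.0427), and it was picked out because the stimuli's effects differed by a direct test. It was higher with IF in 3 of 3 libraries than in any DC library, as for 10.7% of genes. The call was lost in 9 of 15 alternatives, as given above.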

How the results depend on the processing

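Numbers of members called were within 1.5 times the main count in 142 of 159 alternatives. These include comparisons with 0 calls in both fits and drops from 3 calls to 2. They also do not require the same members. At IF 8 h without unstimulated replicate 1, Zfp36l2 was lost and Rc3h1 gained, with 3 calls in both. With library size alone, 5, 5 and 6 members passed at IF 8 h, DC 8 h and DC 22 h against 3 in each, and DESeq2 gave 5 at IF 8 h. That scaling moved the median of all genes, in log2, from 0.02, 0.04, 0.01 and 0.04 to 0.26, 0.30, 0.22 and 0.37 at IF 8 h, DC 8 h, IF 22 h and DC 22 h, and the share of calls that were higher from 39.2%, 40.3%, 43.3% and 43.9% to 76.3%, 79.6%, 74.1% and 85.4%. At IF 22 h 1 member passed without replicates 2 and 3. Between IF and DC at 8 h, 1 passed without the low-count filter, and 0 to 1 with a library left out. Between IF and DC at 22 h, 0 passed with library size alone, with only the groups compared and without IF 22 h replicates 2 and 3, and 0 to 2 with a library left out. None of the 13 members' differences past the threshold changed sign. Among the other differences from unstimulated cells, and those between stimulated groups of at least 1 SE, the sign changed in 3 cases: Zc3h12a at IF 8 h was 0.016 with library size alone, and without IF 22 h replicates 2 and 3 the change from 8 h to 22 h with IF was -0.12 for Zfp36l1 and -0.0056 for Zfp36l2. Of 20 differences between stimulated groups under 1 SE, 15 changed sign in at least 1 alternative (38 of 322 values), so no direction is read from them. The cause of these shifts was not tested.

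With the replicate number as a block, 0 members passed between IF and DC at 22 h (Zfp36l2, adjusted p = 0.0582), and 3, 4, 3 and 3 against unstimulated cells. Of 30 same-numbered pairs 4 correlated above 0.1 (range -0.189 to 0.399), and 9 of 15 libraries correlated best with their own number. Pairing was not shown, also not between DC 8 h and DC 22 h, where numbers 1 and 3 were not told apart. In that comparison the block called 0 members and 49 genes, against 0 and 52 without it.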
